A study of Homo sapiens with 6 samples.

Results

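The carcinoembryonic antigen-related cell adhesion molecules, or CEACAMs, were examined in AGS, a cell line from a human stomach adenocarcinoma. Beta-catenin was silenced with an siRNA to its gene, CTNNB1, in cells of 3 arrays, and cells of 3 further arrays received a non-targeting control siRNA. RNA was taken 48 hours after transfection and read on an Affymetrix gene array, and the values are log2 expression after the authors' RMA normalisation. No array came from untransfected cells, and all 6 come from a single cell line, so both groups share its genotype and the transfection itself. The family was represented by 9 genes, CEACAM1, CEACAM3, CEACAM4, CEACAM5, CEACAM6, CEACAM7, CEACAM8, CEACAM19 and CEACAM21, of 18417 genes in the table. These were the members with a transcript cluster, the array's unit for a gene, that was paired with exactly 1 gene symbol, and each of the 9 had 1 such cluster. The family was chosen with its differences between the siRNAs already known, so those differences are given as a description, without a test.

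CEACAMs are glycoproteins of the immunoglobulin superfamily that sit on the cell surface and bind each other, on the same cell and between neighbouring cells, through their outermost immunoglobulin-like domain. CEACAM5, CEACAM6, CEACAM7 and CEACAM8 are held in the membrane by a glycosylphosphatidylinositol (GPI) anchor, while CEACAM1, CEACAM3, CEACAM4, CEACAM19 and CEACAM21 cross it and end in a cytoplasmic tail. CEACAM5, CEACAM6 and CEACAM1 are epithelial genes of the gut, CEACAM3, CEACAM4 and CEACAM8 are known from granulocytes, and several epithelial members serve as receptors for Helicobacter pylori on gastric cells.

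CTNNB1, the silenced gene, read 10.27, 10.78 and 10.58 with its siRNA (replicates 1 to 3) and 11.92, 11.76 and 11.75 with control siRNA, a log2 difference of -1.27 (SE 0.17, adjusted p = 0.232 in limma). Its groups were apart. In limma over all 19460 tested clusters, 1 passed an adjusted p of 0.05, which is 0.00514%, and it was higher after CTNNB1 siRNA. One array, CTNNB1 siRNA replicate 1, differed from the rest, with Pearson correlations of 0.962 to 0.965 with the other arrays, taken across transcript clusters, against 0.983 to 0.988 among the remaining pairs. Of 10 epithelial marker genes listed for this work, such as EPCAM and the keratins, 9 had a cluster, with row means of 6.85 to 12.35. As a measure of how a gene without a transcript may read, the 360 olfactory receptor clusters had a median of 3.27 and a 95th percentile of 4.88, called the olfactory level below. CEACAM1, CEACAM3, CEACAM4, CEACAM5, CEACAM6 and CEACAM19 had a mean above that level, and CEACAM7, CEACAM8 and CEACAM21 did not. A mean above the level does not establish a transcript, since 13125 of the 19460 clusters had one. So did 5 of 12 measured neutrophil, 1 of 5 lymphocyte and 3 of 9 fibroblast and endothelial markers, with means up to 6.72, 5.95 and 6.74. The means of CEACAM3, CEACAM19 and CEACAM4 were 6.01, 5.46 and 5.21.

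CEACAM5 and CEACAM6, the GPI-anchored epithelial members, were the pair that separated the groups. Their means were higher after CTNNB1 siRNA, by log2 differences of 1.35 and 1.18. In a bulk sample, a higher share of cells with a transcript and more of it per cell cannot be told apart. CEACAM1, the transmembrane epithelial member, was 1.48-fold higher on average with groups that overlapped, and CEACAM3, the neighbour of CEACAM6 on the chromosome, differed by -0.0095. Of the 9 genes, 2 were higher with groups that did not overlap and 0 were lower in that way. Over all tested clusters, 6.81% were higher and 6.8% lower without overlap. The same 2 genes were apart and higher by 1.5-fold or more, as were 1.15% of clusters, and by 2-fold or more, as were 0.185%. Because the family was chosen on this contrast, nothing is read from the comparison of these shares.

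CEACAM5 encodes the carcinoembryonic antigen itself, the serum marker of gastrointestinal cancers. Its log2 expression was 9.23, 10.27 and 10.48 on CTNNB1 siRNA replicates 1 to 3, against 8.13, 9.01 and 8.80 on control siRNA replicates 1 to 3. Every CTNNB1 siRNA array lay above every control array, with a gap of 0.21 between the lowest CTNNB1 siRNA array and the highest control array. The means were 9.99 ± 0.67 (SD, n = 3) after CTNNB1 siRNA and 8.65 ± 0.46 (SD, n = 3) in control cells, a 2.55-fold difference (log2 difference 1.35, SE 0.36).

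CEACAM6 encodes a GPI-anchored adhesion molecule of epithelia and granulocytes that also binds CEACAM5. It read 9.79, 10.50 and 10.62 on CTNNB1 siRNA replicates 1 to 3, against 8.56, 9.55 and 9.26 on control siRNA replicates 1 to 3. The groups were again apart, by 0.24. Its means were 10.30 ± 0.45 (SD, n = 3) and 9.12 ± 0.51 (SD, n = 3) in CTNNB1 siRNA and control siRNA cells, a 2.27-fold difference (log2 difference 1.18, SE 0.30).

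CEACAM1 is the member whose long cytoplasmic tail carries inhibitory tyrosine motifs that recruit the phosphatases encoded by PTPN6 and PTPN11. It read 8.87, 9.95 and 10.14 on CTNNB1 siRNA replicates 1 to 3, against 8.60, 9.33 and 9.33 on control siRNA replicates 1 to 3. CTNNB1 siRNA replicate 1 lay below control replicates 2 and 3, so the groups overlapped, and the log2 difference of 0.56 had an SE of 0.35. The means were 9.65 ± 0.68 (SD, n = 3) after CTNNB1 siRNA and 9.09 ± 0.42 (SD, n = 3) in control cells. The difference was 0.95 without CTNNB1 siRNA replicate 1 and 0.32 without control siRNA replicate 1 or CTNNB1 siRNA replicate 3.

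**Figure D1:**
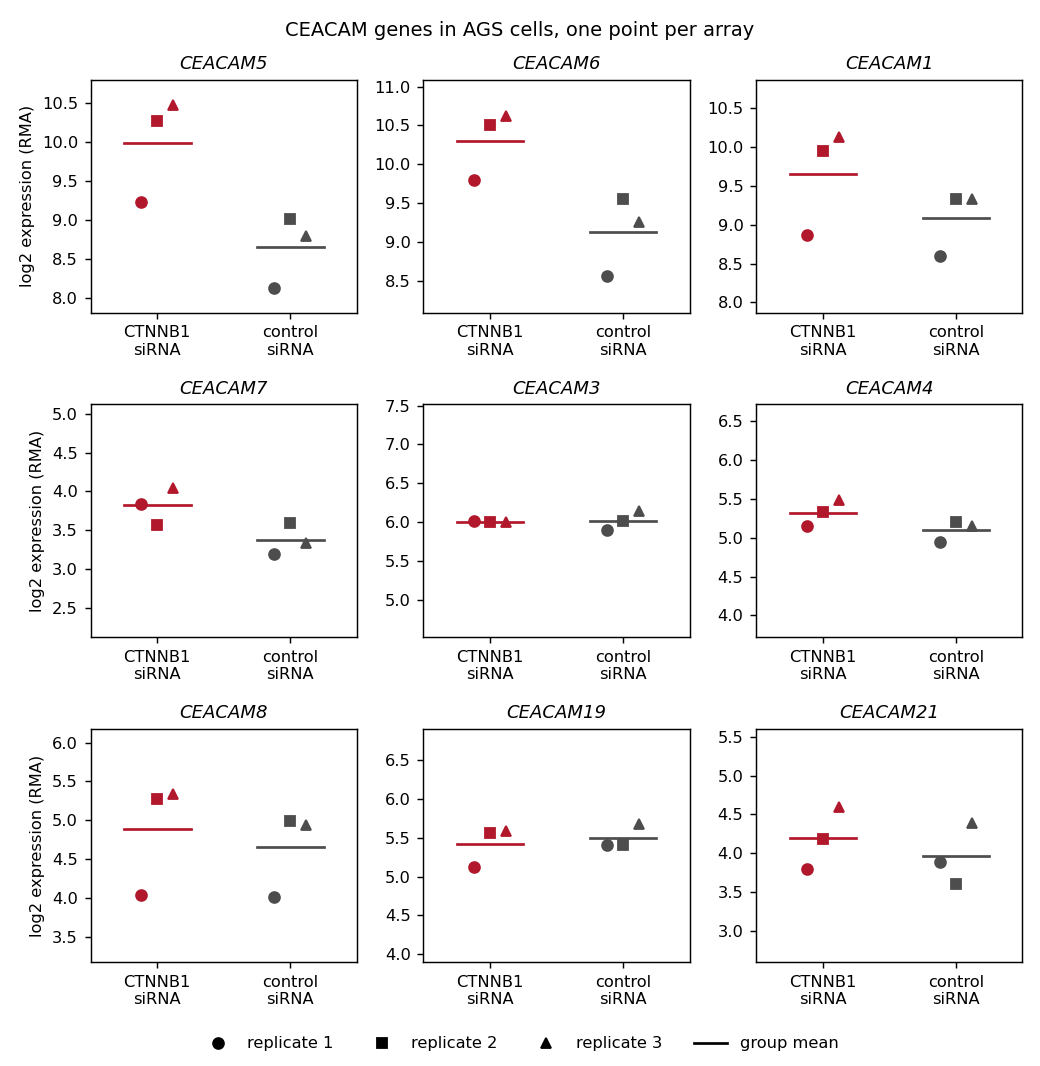
Log2 expression of the 9 CEACAM genes on each array, with CTNNB1 siRNA on the left and control siRNA on the right of each panel. Each symbol is an array, the line is the group mean, and every vertical axis spans the same number of log2 units around a different centre. The groups are apart for CEACAM5 and CEACAM6 and overlap for the other 7 genes.

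CEACAM7, the remaining GPI-anchored epithelial member and one known from the apical surface of colonic cells, was dim. It read 3.84, 3.57 and 4.05 on CTNNB1 siRNA replicates 1 to 3, against 3.19, 3.59 and 3.34 on control siRNA replicates 1 to 3. A single CTNNB1 siRNA array, replicate 2, lay below the highest control, and the log2 difference was 0.45 (SE 0.18). All of its values were below the olfactory level, where RMA compresses differences, so neither its presence nor the size of the difference is established.

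The granulocyte-type members differed little or were near the olfactory level. CEACAM3, a phagocytic receptor for bacteria on neutrophils, read 6.02, 6.01 and 6.00 on CTNNB1 siRNA replicates 1 to 3, against 5.89, 6.02 and 6.14 on control siRNA replicates 1 to 3. Its 3 CTNNB1 siRNA arrays lay within the range of the controls, and its difference of -0.0095 had an SE of 0.13. CEACAM4, whose tail carries an activating tyrosine motif, read 5.15, 5.33 and 5.49 on CTNNB1 siRNA replicates 1 to 3, against 4.95, 5.20 and 5.15 on control siRNA replicates 1 to 3, a log2 difference of 0.22 (SE 0.15). CEACAM8, a GPI-anchored surface marker of granulocytes, read 4.04, 5.27 and 5.34 on CTNNB1 siRNA replicates 1 to 3, against 4.01, 4.99 and 4.94 on control siRNA replicates 1 to 3.

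In CEACAM8 the spread within each group was larger than the difference between them, which was 0.23 (SE 0.40). That difference was 0.66 without CTNNB1 siRNA replicate 1 and -0.087 without control siRNA replicate 1. It was 0.037 and 0.0056 without CTNNB1 siRNA replicates 2 and 3, and 0.41 and 0.38 without control siRNA replicates 2 and 3. For CEACAM4 it was 0.14 without CTNNB1 siRNA replicate 3 and 0.15 without control siRNA replicate 1. Of 13 neutrophil markers listed for this work, such as MPO, 12 had a cluster and 5 had a mean above the olfactory level. Their mean level was 4.54 to 4.69 on CTNNB1 siRNA arrays and 4.43 to 4.59 on control arrays, ranges that overlapped. The part of such cells in these values was not tested, and the samples are labelled as a cell line.

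CEACAM19 and CEACAM21 are less studied transmembrane members. CEACAM19 read 5.12, 5.56 and 5.59 on CTNNB1 siRNA replicates 1 to 3, against 5.41, 5.41 and 5.68 on control siRNA replicates 1 to 3, a difference of -0.076 (SE 0.17). CEACAM21 read 3.80, 4.19 and 4.59 on CTNNB1 siRNA arrays, against 3.89, 3.60 and 4.39 on control arrays, a difference of 0.23 (SE 0.26). The groups overlapped for both genes. With an array left out, CEACAM19 lay between -0.16 and 0.074 and CEACAM21 between 0.033 and 0.45.

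As a list, 7 of the 9 genes had a higher mean after CTNNB1 siRNA and 2 a lower mean, where 49.1% of all genes had a higher mean. CEACAM7, CEACAM8 and CEACAM21, among the higher, had means below the olfactory level. The median log2 difference of the 9 was 0.23, while the median over all 18417 genes was -0.0052. The family was chosen on this contrast, so nothing is read from either comparison. The median of the 9 was 0.44 without CTNNB1 siRNA replicate 1, 0.14 without CTNNB1 siRNA replicate 3, 0.41 without control siRNA replicate 2 and 0.43 without control siRNA replicate 3. No gene of the family was close to the difference of CEACAM6 apart from CEACAM5: the next was CEACAM1 at 0.56.

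The members also differed in how much they varied among arrays that had the same siRNA, a measure that does not involve the contrast. The SD among the 3 control arrays was 0.46 for CEACAM5, 0.51 for CEACAM6, 0.42 for CEACAM1 and 0.55 for CEACAM8. The median control SD was 0.161 over the 13125 clusters above the olfactory level. Ranked among those clusters, the SD of CEACAM5 lay at percentile 95.9, that of CEACAM6 at 96.9, that of CEACAM1 at 94.5 and that of the dimmer CEACAM8 at 97.8. CEACAM3, CEACAM4 and CEACAM19, with 0.12, 0.13 and 0.15, lay below the median. Of the other dim members, CEACAM21 had an SD of 0.40, at percentile 93.2, and CEACAM7 had 0.20, at percentile 63.7. In CEACAM1, CEACAM4, CEACAM5, CEACAM6 and CEACAM8 replicate 1 was the lowest array in both groups, as it was in 18.9% of all tested clusters. CEACAM1, CEACAM5, CEACAM6 and CEACAM8 on control siRNA replicate 1 were 0.49 to 0.64 below their own control mean.

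**Figure D2:**
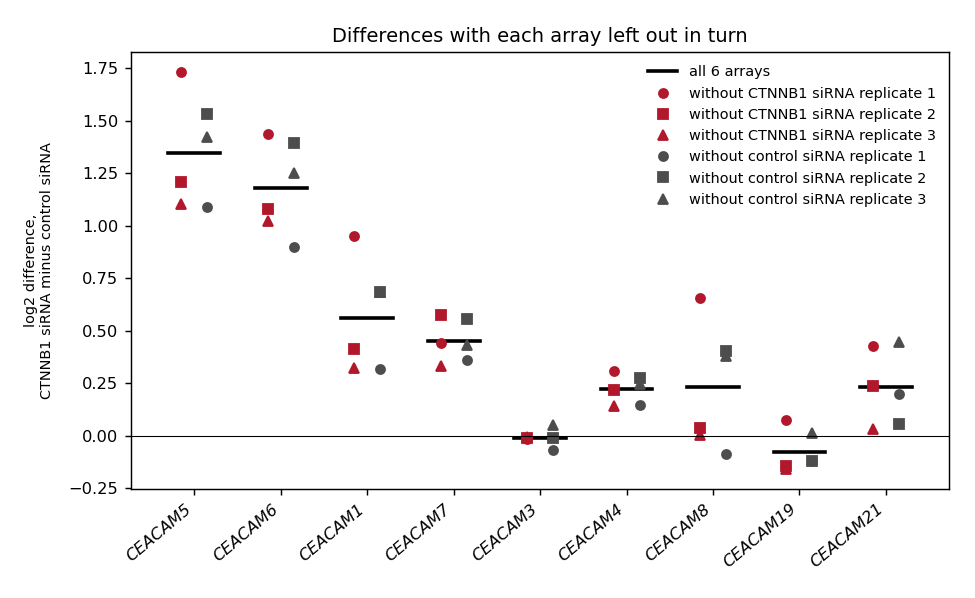
Log2 difference, CTNNB1 siRNA minus control siRNA, of each CEACAM gene with all 6 arrays (black bar) and with each array left out in turn (symbols, red for a CTNNB1 siRNA array and grey for a control array). CEACAM5 stays between 1.09 and 1.73 and CEACAM6 between 0.90 and 1.44, while CEACAM3, CEACAM8 and CEACAM19 have values on both sides of 0.

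CEACAM5 and CEACAM6 stayed apart in each of the 6 fits that left out an array. This follows from their being apart with all 6 arrays and adds nothing to it. Their log2 differences lay between 1.09 and 1.73 and between 0.90 and 1.44. CEACAM7, with all values below the olfactory level, was also apart without CTNNB1 siRNA replicate 2 or without control siRNA replicate 2. In each of those fits 11.9% of all tested clusters were higher without overlap. With CTNNB1 siRNA replicate 1 left out, 5 of the 9 genes were higher without overlap (CEACAM1, CEACAM4, CEACAM5, CEACAM6 and CEACAM8), where 13.2% of all tested clusters were.

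The family lies on chromosome 19, and the 9 genes fall into groups along it. In the gene order of the RefSeq table for GRCh38.p14, CEACAM21, CEACAM4, CEACAM7, CEACAM5, CEACAM6 and CEACAM3 follow each other with no other protein-coding gene between them. CEACAM1 and CEACAM8 are neighbours further along, and CEACAM19 closes a stretch of 83 protein-coding genes. Within the first group the differences were 0.23, 0.22, 0.45, 1.35, 1.18 and -0.0095 in chromosomal order. The highest values belonged to the adjacent genes CEACAM5 and CEACAM6. CEACAM21 and CEACAM7 had means below the olfactory level, and the mean of CEACAM3 does not establish a transcript. The differences of these genes therefore mark no edge of the high values. The stretch held 55 further measured genes outside the family, of which 26 were higher and 29 lower, with a median of -0.0065. None of these 55 reached the difference of CEACAM6. In absolute size that difference lay at percentile 99.8 of all tested clusters and was known when the family was chosen. Nothing is therefore read from this count. The highest of the 55 was 0.90 for PLAUR, the urokinase receptor gene, which encodes another GPI-anchored protein and is named because it is the maximum.

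**Figure D3:**
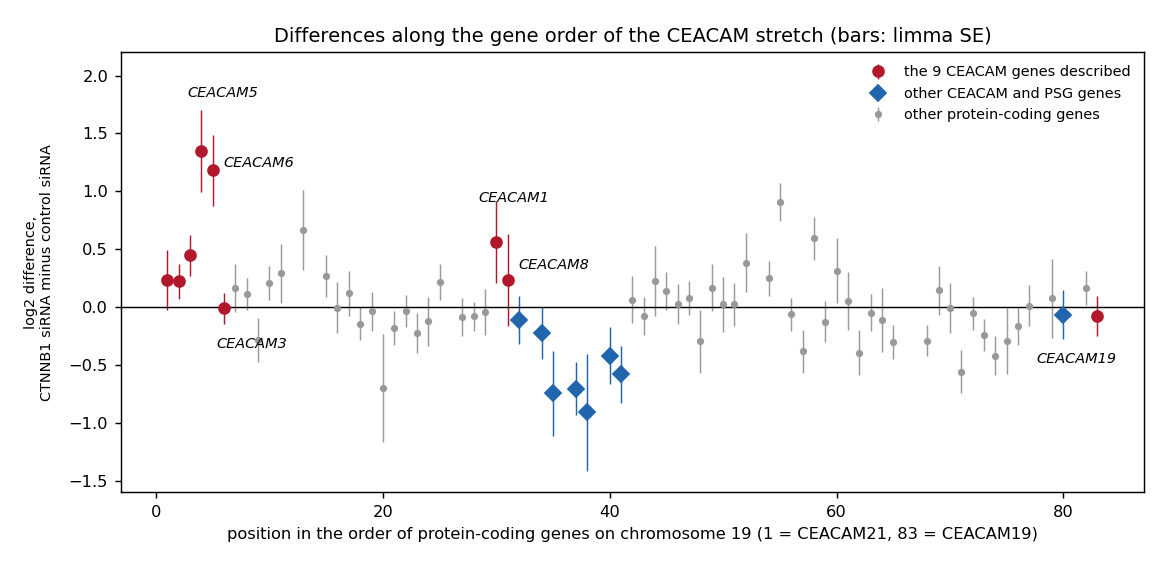
Log2 difference, CTNNB1 siRNA minus control siRNA, of the measured protein-coding genes from CEACAM21 to CEACAM19 in their order on chromosome 19, with limma standard errors as bars. CEACAM5 and CEACAM6 are the highest points at 1.35 and 1.18, and the 8 PSG and CEACAM20 points (blue diamonds) lie below 0.

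Promoter sequences of CEACAM5, CEACAM6, CEACAM7, CEACAM3 and CEACAM1 are shown as a description. The motifs searched were chosen with earlier results of these data known, and their part in the differences was not tested. The stretches are the 120 bases before the RefSeq transcript start on GRCh38.p14, read 5′ to 3′ on the strand of the gene, and capitals mark matches to the motifs searched.
CEACAM5: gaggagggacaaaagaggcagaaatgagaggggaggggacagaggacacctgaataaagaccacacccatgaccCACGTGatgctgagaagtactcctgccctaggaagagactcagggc
CEACAM6: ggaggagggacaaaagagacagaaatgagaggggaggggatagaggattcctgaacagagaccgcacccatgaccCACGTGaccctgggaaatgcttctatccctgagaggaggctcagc
CEACAM7: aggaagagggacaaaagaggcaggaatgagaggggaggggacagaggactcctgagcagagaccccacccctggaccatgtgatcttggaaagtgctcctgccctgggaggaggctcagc
CEACAM3: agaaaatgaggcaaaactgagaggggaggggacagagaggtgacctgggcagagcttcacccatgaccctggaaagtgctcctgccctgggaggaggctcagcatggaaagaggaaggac
CEACAM1: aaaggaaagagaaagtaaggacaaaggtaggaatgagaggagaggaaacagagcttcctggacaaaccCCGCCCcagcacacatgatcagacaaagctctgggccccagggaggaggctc

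These windows are chr19:41708506-41708625 on the forward strand for CEACAM5, chr19:41755410-41755529 on the forward strand for CEACAM6 and chr19:41688271-41688390 on the reverse strand for CEACAM7. CEACAM3 is at chr19:41796467-41796586 on the forward strand and CEACAM1 at chr19:42528482-42528601 on the reverse strand. Over the 250 bases before the start, CEACAM5 was 80.5% identical to CEACAM7 and 74.6% identical to CEACAM6, and CEACAM6 was 71.1% identical to CEACAM3, counted over alignment columns.

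The motif in capitals in CEACAM5 and CEACAM6 is CACGTG, an E-box of the kind that the factors USF1 and USF2 bind, which begins at base -46 in CEACAM5 and at base -45 in CEACAM6. Promoter windows of 250 bases before to 50 after the start were found for 8 of the 9 genes, with 9 windows in all because CEACAM21 has 2. CACGTG was in 2 of the 9, those of CEACAM5 and CEACAM6, and in 7.26% of all 35116 windows of that length. These 2 windows are related in sequence, with 74.6% identity before the start, so their matches are not independent of each other. CCGCCC, in capitals in CEACAM1, is the reverse complement of GGGCGG, the GC box of Sp1. The GC box was in 5 of the 9 windows, of CEACAM1, CEACAM6, CEACAM8 and both of CEACAM21, and in 45.0% of all windows, and in CEACAM6 it lay further upstream than the bases shown.

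Neither of the searched TCF/LEF sequences, CTTTGAT and CTTTGAA, was in any of the 9 windows, against 2.62% and 4.43% of all windows. The same was true of CAAAGTC, part of an HNF4 site, with 3.37% of all windows. TTTATG, a CDX sequence, was in 1 window of CEACAM21 and in 10.6% of all. Both strands were searched, and no motif overlapped another in the windows of the members. A match is a sequence of letters and not a measured binding site, and its absence says only that these letters are not in this window.

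Other genes of the CEACAM family tree had other values. The pregnancy-specific glycoprotein genes, or PSGs, encode secreted relatives known from the placenta and lie next to CEACAM8. Of 13 listed PSG and further CEACAM genes, 9 had a cluster, all 9 had a lower mean after CTNNB1 siRNA, as had 50.9% of all genes, and the median log2 difference was -0.42. PSG11 read 6.69, 7.36 and 7.43 on CTNNB1 siRNA replicates 1 to 3, against 7.70, 7.77 and 8.13 on control siRNA replicates 1 to 3, a difference of -0.71 (SE 0.23). PSG9 read 5.34, 5.97 and 6.36 on CTNNB1 siRNA arrays, against 6.39, 6.63 and 6.40 on control arrays, a difference of -0.58 (SE 0.25). These 2 genes were the ones of the 9 whose groups were apart, where 6.89% of all genes were lower without overlap.

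None of the 9 passed limma over all clusters (smallest adjusted p = 0.816), and 2 had an unadjusted p under 0.05, as had 5.67% of all genes. PSG2, chosen after its values were seen, had the lowest mean difference, -0.91 (SE 0.51), which was -0.25 without CTNNB1 siRNA replicate 1, where it read 5.61 against 7.64 and 7.56 on the other CTNNB1 siRNA arrays. Without that array the differences of PSG11 and PSG9 were -0.47 and -0.31 and the median of the list was -0.25. The direction was not firm for CEACAM16 (-0.0014), CEACAM20 (-0.065) and PSG3 (-0.11), also chosen after their values were seen, each of which turned higher in at least 1 fit that left out an array. PSG genes are near-identical to each other, so signal may be shared among their probes, and the probe sequences were not used here. The same limit holds for CEACAM5, CEACAM6, CEACAM3 and CEACAM1, and its part in their values was not tested.

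**Figure D4:**
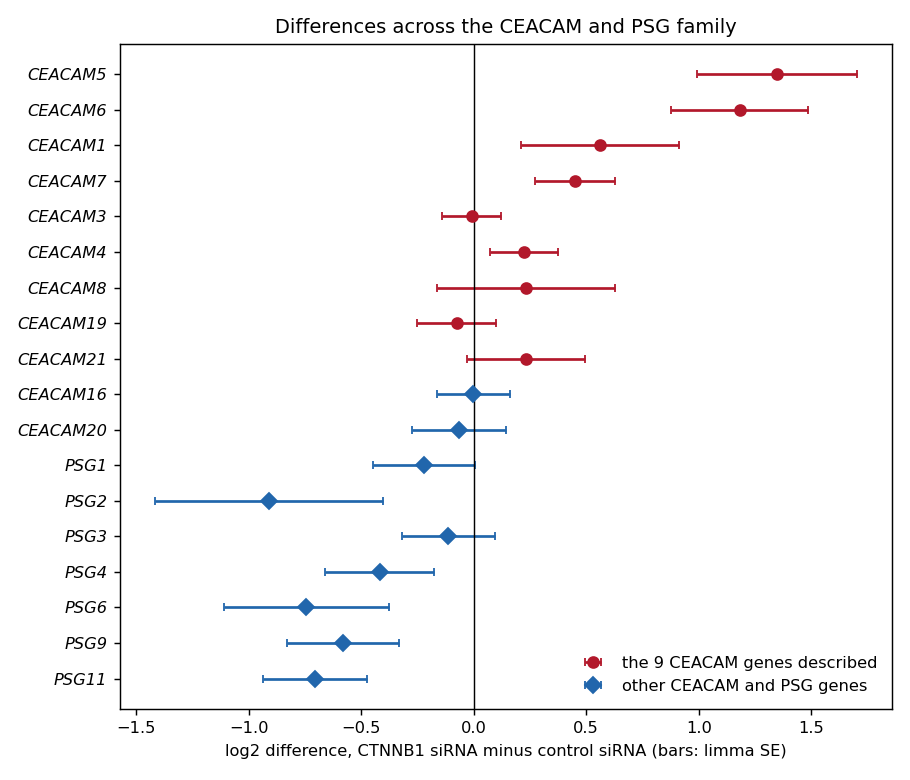
Log2 difference, CTNNB1 siRNA minus control siRNA, of the 9 CEACAM genes described (red circles) and of 9 other CEACAM and PSG genes (blue diamonds), with limma standard errors as bars. CEACAM5 and CEACAM6 lie above 1, and the lowest values are -0.91 for PSG2 and -0.74 for PSG6, both with overlapping groups.

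To place CEACAM5, CEACAM6 and CEACAM1 among other genes, each profile was centred on its own mean over the 6 arrays and the root mean square distance, in log2 units, to the 12455 genes above the olfactory level other than the member itself was taken. These are the 3 members above that level with the largest SD over the arrays. CEACAM6 was closer to CEACAM5, at 0.158, than any gene outside the family. The nearest genes outside the family to CEACAM6 were CPM, encoding the GPI-anchored carboxypeptidase M, at 0.092, and BDKRB1, a bradykinin receptor gene, at 0.14. TSPAN1, a tetraspanin gene, RNASE1, a secreted ribonuclease gene, and MXD1, encoding an antagonist of MYC, followed at 0.18 to 0.186. For CEACAM5 the nearest were CPM at 0.189, BDKRB1 at 0.271, RNASE1, MXD1 and HHLA2, a gene of the B7 family of immune ligands, at 0.298.

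CPM read 5.04, 5.85 and 5.85 on CTNNB1 siRNA replicates 1 to 3, against 3.96, 4.78 and 4.74 on control siRNA replicates 1 to 3. Its groups were apart, with replicate 1 the lowest array of each group, as in CEACAM6. All 3 control values of CPM were below the olfactory level of 4.88, so it entered the comparison through its CTNNB1 siRNA arrays, and both its distance and its difference rest on control values at background. CEACAM1 had other nearest genes. SEMA4G, a semaphorin gene, was at 0.162, RNF39 at 0.163, LIPH, a phospholipase gene, at 0.179, ITGB6, an epithelial integrin gene, at 0.192 and FAXDC2 at 0.197, while CEACAM6 was at 0.349 and CEACAM5 at 0.398. The distances use the same 6 arrays as the differences, so they describe these arrays and carry no test.

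**Figure D5:**
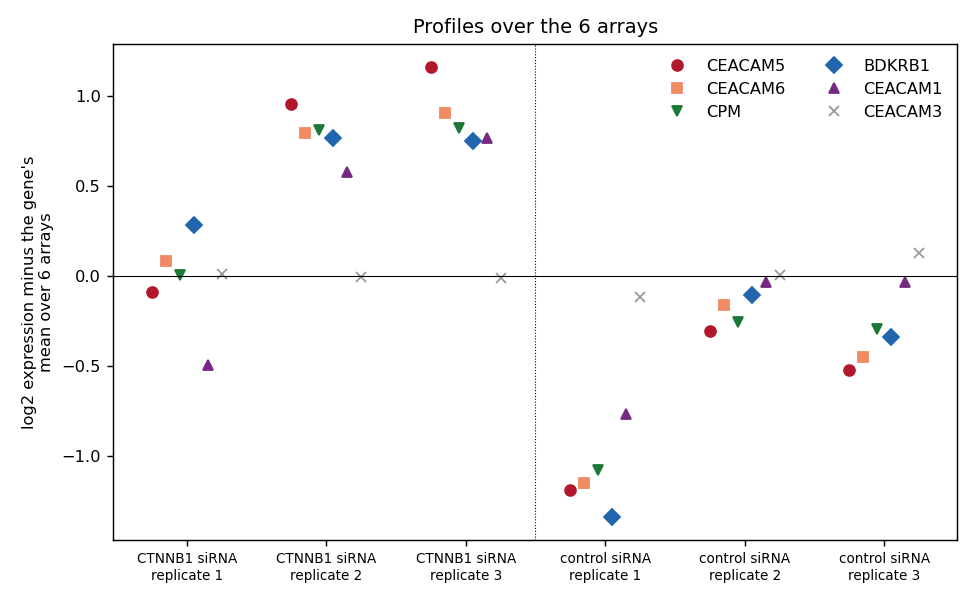
Log2 expression minus the gene's mean over the 6 arrays for CEACAM5, CEACAM6, CPM, BDKRB1, CEACAM1 and CEACAM3, with the CTNNB1 siRNA arrays to the left of the dotted line and the control arrays to its right. CEACAM5, CEACAM6, CPM and BDKRB1 move together across the arrays, CEACAM1 is low on CTNNB1 siRNA replicate 1, and CEACAM3 stays near 0.

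Genes that work with CEACAMs were taken from lists drawn up with earlier results of these data known, so counts over a list are a description. No member of any of these lists passed limma over all 19460 clusters. Among all genes, 6.86% were higher and 6.89% lower without overlap, and 5.67% had an unadjusted p under 0.05. The 23 listed binding and signalling partners included 17 measured genes, 9 higher and 8 lower, with a median of 0.069 that was -0.081 without CTNNB1 siRNA replicate 1, 0.027 without control siRNA replicate 1 and 0.0054 without control siRNA replicate 2. Of these 17, 2 were higher and 3 lower without overlap, CTNNB1 itself among the lower, and 2 had an unadjusted p under 0.05. FGR, a kinase gene of the SRC family, differed by 0.41 (SE 0.13, adjusted p = 0.816 in limma) and PIK3R1, a regulatory subunit gene of phosphoinositide kinase, by -0.50 (SE 0.23, adjusted p = 0.816). VAV1, an exchange factor gene, differed by -0.40 (SE 0.20). PTPN6 and PTPN11, the phosphatase genes that serve CEACAM1, differed by 0.10 (SE 0.15) and -0.026 (SE 0.13), with overlapping groups; both were chosen after their values were seen. Without CTNNB1 siRNA replicate 1, PIK3R1 was at -0.29 and VAV1 at -0.19.

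The GPI anchor is built in the endoplasmic reticulum by a chain of enzymes and joined to the protein by a transamidase. Of 30 listed genes of this route, 29 were measured, with 12 higher, 17 lower and a median of -0.12, which was -0.21 without CTNNB1 siRNA replicate 2, -0.057 without CTNNB1 siRNA replicate 3 and -0.075 without control siRNA replicate 3. Of the 29, 3 were higher and 1 lower without overlap, and 1 had an unadjusted p under 0.05. PIGC, an enzyme subunit gene of the first step, had the largest difference of those apart, 0.53 (SE 0.23, adjusted p = 0.816 in limma), and 0.33 without CTNNB1 siRNA replicate 1. PIGQ, of the same enzyme, differed by 0.31, PIGN, of a later step, by 0.22 and PIGX, of the first mannose step, by -0.19.

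Other GPI-anchored surface proteins were listed as well, with 44 of 45 genes measured, 25 higher and 19 lower, and a median of 0.078. That median was 0.018 without CTNNB1 siRNA replicate 2, 0.037 without CTNNB1 siRNA replicate 3, 0.042 without control siRNA replicate 1 and 0.23 with the dimmest 40% of clusters left out. Of the 44, 11 were higher and 2 lower without overlap, and 9 had an unadjusted p under 0.05. ALPP, a placental alkaline phosphatase gene, differed by 1.39 (SE 0.19, adjusted p = 0.232 in limma) and ALPG, its near-identical relative, by 1.28 (SE 0.20, adjusted p = 0.388), and their probes may share signal. CPM, whose control arrays were at background, differed by 1.09 (SE 0.30, adjusted p = 0.816). PSCA, a surface antigen gene of gastric and prostate epithelium, differed by 0.96 (SE 0.19, adjusted p = 0.747).

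Among adhesion genes of the immunoglobulin superfamily outside the CEACAM family, 41 of 44 listed genes were measured, 25 higher and 16 lower, with a median of 0.083, which was 0.046 without control siRNA replicate 1 and 0.15 with the dimmest 40% of clusters left out. Of the 41, 8 were higher and 1 lower without overlap, and 4 had an unadjusted p under 0.05. NECTIN4, an adherens junction gene, differed by 0.61 (SE 0.25) and IGSF9 by 0.61 (SE 0.16). NECTIN2 differed by 0.44 (SE 0.16), and the 3 genes each had an adjusted p of 0.816 in limma. Without control siRNA replicate 1 NECTIN4 was at 0.32. Of the 9 epithelial markers, 7 had a higher and 2 a lower mean, with a median of 0.33, and 3 were higher and 1 lower without overlap. Their mean level was 9.99 to 10.23 on CTNNB1 siRNA arrays and 9.73 to 9.82 on control arrays, and their part in these results was not tested.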

How the data were processed

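Each deposited value is the log2 level of a transcript cluster. The submitters' processing notes name RMA and Affymetrix Expression Console 1.1, and the range of the authors' values shows the log2 scale. RMA makes array distributions alike and compresses differences of dim clusters. For the clusters, the sources used here give no genome build. Each sample was 500 ng of RNA, and array number limits the precision.

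Of 33297 clusters, the platform annotation paired 19460 with exactly 1 symbol, and these were tested. Symbols were updated through RefSeq gene identifiers for 19429. The highest-mean cluster stood for a gene. Groups of 3 arrays, taken from the labels, were compared with limma 3.58.1 in R 4.3.3 (lmFit, eBayes, 2-sided, Benjamini-Hochberg over all tested clusters, threshold 0.05), checked on simulated data. SE is limma's. Replicates are called biological in the titles; separate cultures are not stated, so p-values cover the spread among these arrays alone.

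The members, lists and motifs were chosen with earlier results of these data known. Named genes were the members, CTNNB1, up to 4 per list with the largest difference among those apart and above the olfactory level, and the 5 nearest profiles to each of the 3 members above that level with the largest SD. PSG2, PSG3, PSG6, CEACAM16, CEACAM20, PLAUR, PTPN6 and PTPN11 lie outside this rule and were chosen after their values were seen. Promoter windows are RefSeq's, aligned with Biopython 1.88. Alternatives were each array left out, replicate number as a block, array weights, median centring, repeated quantile normalisation, the lowest-mean cluster per gene, dim clusters left out and a shorter promoter window.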

Additional observations from a re-analysis of the deposited data

How the results depend on the processing

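The log2 differences of CEACAM1, CEACAM4, CEACAM5, CEACAM6, CEACAM7 and CEACAM21 were positive under all 11 alternatives computed for them, and those of CEACAM3, CEACAM8 and CEACAM19 were not. The replicate block and the lowest-mean cluster could not change these differences, since the design was balanced and each member had 1 cluster. Median centring shifted the difference of every gene by the same amount. The median over the 9 members lay between 0.14 and 0.44 with an array left out and was 0.40 with array weights. The count of members higher without overlap was 2, where 6.81% of all tested clusters were. With an array left out, non-overlap is easier to reach, and the count lay between 2 and 5, where 9.92% to 13.2% of clusters were. After repeated quantile normalisation the count was 3, for which no share over all clusters is given. In limma, 1 cluster passed over all, with 1098 at an unadjusted p under 0.05, and between 0 and 10 passed with an array left out. With array weights 13 passed. None passed with arrays centred on their medians (1163 at an unadjusted p under 0.05), with the dimmest 40% of clusters left out (670) or with the replicate number as a block (1123). Deviations of same-numbered arrays correlated at 0.092, 0.12 and 0.098, and each array correlated best with its own number. These low values do not settle whether the numbers mark pairs, and the main fit used no pairing. Members of the lists past the threshold numbered 0 (0 to 1 with an array left out), and 4 with array weights, ALPP, ALPG, PSCA and CTNNB1. The sign turned for PSG3 without control siRNA replicate 1 (range with an array left out -0.34 to 0.044), for CEACAM20 without CTNNB1 siRNA replicate 1 (0.029) or 2 (range -0.30 to 0.079) and for CEACAM16 in 4 such fits (0.019 to 0.10, range from -0.13) and with array weights (0.044). The cause was not tested.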

Other observations

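Transcription factors of gut epithelium and of CEACAM promoters were listed too, with 18 of 20 genes measured. Their median log2 difference was -0.030 (0.096 without CTNNB1 siRNA replicate 1, and between -0.11 and -0.018 without each other array), with 8 higher and 10 lower, and 3 were higher and 0 lower without overlap, against 6.86% and 6.89% of all genes. KLF4, a factor of differentiated epithelium, read 8.75, 7.88 and 8.13 on CTNNB1 siRNA replicates 1 to 3, against 7.10, 7.19 and 7.11 on control siRNA replicates 1 to 3. The log2 difference of KLF4 was 1.12 (SE 0.22). PPARG, a nuclear receptor gene of differentiated gut epithelium, differed by 0.60 (SE 0.21) and SMAD3, an effector of TGF-beta signalling, by 0.59 (SE 0.17). Replicate 1 was the highest CTNNB1 siRNA array for KLF4. For PPARG and SMAD3 it was the lowest, as it was for CEACAM5, CEACAM6 and CEACAM1. The part of these factors in the CEACAM values was not tested. None of the 18 passed limma over all clusters (smallest adjusted p = 0.747), and 4 had an unadjusted p under 0.05, against 5.67% of all genes.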
